A study of Mus musculus with 6 samples.

Results

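The genes described here encode the proteins of the cytosolic ribosome, measured in the retinal pigment epithelium and choroid (RPE/choroid) of the mouse. Members were all genes of the deposited table whose symbol begins with Rpl, Rps or Rplp and continues as the standard numbering of ribosomal proteins does, together with Rpsa, and 83 of 33924 genes met this rule. RPE/choroid was scraped from the sclera of C57BL/6J wild-type mice after the cornea, lens, iris, attached muscle and neural retina had been dissected away. Total RNA was depleted of ribosomal RNA and sequenced without poly(A) selection, with 2 eyes making up each sample. There were 3 libraries from young mice, labelled 1 to 2 months old, and 3 from aged mice, labelled 20 to 24 months in their titles and 22 to 24 months in their age field. All 6 animals were labelled male and carried no engineered allele and no treatment, whereas the study's methods name both sexes and give a slightly older range for the young mice.

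The level given below is the baseMean, the mean of the normalized counts of a gene over all 6 libraries as the authors computed it. It pools young and aged mice. It therefore carries no replicate error, no young or aged value and no test, and the table gives no depth. The rows are listed and summed as deposited. Where the level of 1 gene is set against that of another, a value divided by length is given as well, in baseMean per kilobase (kb) of the longest transcript (protein-coding for the members) or of the coding sequence. The authors derived the normalized counts from TPM values, a unit already divided by transcript length. The sources used here do not give whether that division was undone, so the values per kb hold only if it was, and the rows as deposited are the scale if it was not.

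The cytosolic ribosome is built from a small subunit, which reads the messenger RNA, and a large subunit, which joins the amino acids. Each subunit holds its ribosomal RNA and a fixed set of proteins that are needed in nearly equal amounts, named RPS for the small and RPL for the large subunit, while the acidic stalk proteins RPLP0, RPLP1 and RPLP2 recruit the elongation factors. Most ribosomal protein messages begin with a terminal oligopyrimidine tract, through which mTOR signalling controls their translation. Their short, abundant messages have also given rise to a very large number of intronless copies across mammalian genomes, most of which are annotated as pseudogenes.

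The tissue label was checked on marker genes. The RPE genes Rpe65, the visual cycle isomerase, and Ttr, the carrier of thyroxine and retinol, had a baseMean of 43745 and 99322, while the RPE channel gene Best1 had 69.8. Pigment, endothelial, macrophage and fibroblast markers were present as well. So were 4 of 4 rod photoreceptor genes between 6487 and 48191, 3 of 3 skeletal muscle genes between 12939 and 51830, and 2 of 2 lens genes at 535 and 1973. In such bulk tissue, more cells of a type and more RNA per cell cannot be told apart, and the part of each cell type in the levels below was not tested.

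Of the 83 ribosomal protein genes, 82 had a baseMean above 0, and their rows summed to 172133, which was 0.897% of the 19192100 summed over all genes. The median member stood at 978, above 86.1% of all rows and above 82.3% of the 26681 rows with a level above 0. By row, 17 were under 200, 27 between 200 and 1000, 28 between 1000 and 5000, and 11 at 5000 or more. The 10 highest rows held 46.8% of the members' sum.

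The highest row was that of Rps3, a protein at the mRNA entry channel of the small subunit, with a baseMean of 10990.4. The stalk genes Rplp1 and Rplp0 had 10210 and 8382. Next to them stood Rpl13a at 8660.2, Rpl8, whose protein lies by the peptidyl transferase centre, at 8305, and Rpl4, whose protein lines the exit tunnel, at 7660. The top 10 were completed by the small subunit genes Rps9 at 7199, Rps14 at 6757 and Rps4x at 5985, and by the large subunit gene Rpl7 at 6467. High rows thus came from both subunits and from the stalk.

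At the other end of the order, Rpl10l was listed at 0 and Rpl23a, whose protein sits at the mouth of the exit tunnel, had a baseMean of 15.5. The testis-associated paralog Rpl39l had 19.9. Rps29, a small zinc-binding protein of the small subunit, had 39.2, and Rpl28 had 43.5. Between 58.5 and 65.4 stood Rps13 at 58.5, Rps27 at 61.1, Rps23, a protein of the decoding centre, at 64.4, and Rps16 at 65.4. Rpl17 at 80.9 and Rps27a, which is made as a fusion to ubiquitin, at 115 closed the lowest 10 above 0. Except for Rpl39l and Rpl10l, these are core genes of every ribosome. Per kb of coding sequence, the 10 lowest rows stood between 33.2 for Rpl23a and 245 for Rps27a, and the 10 highest between 6094 for Rpl4 and 29854 for Rplp1.

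**Figure D1:**
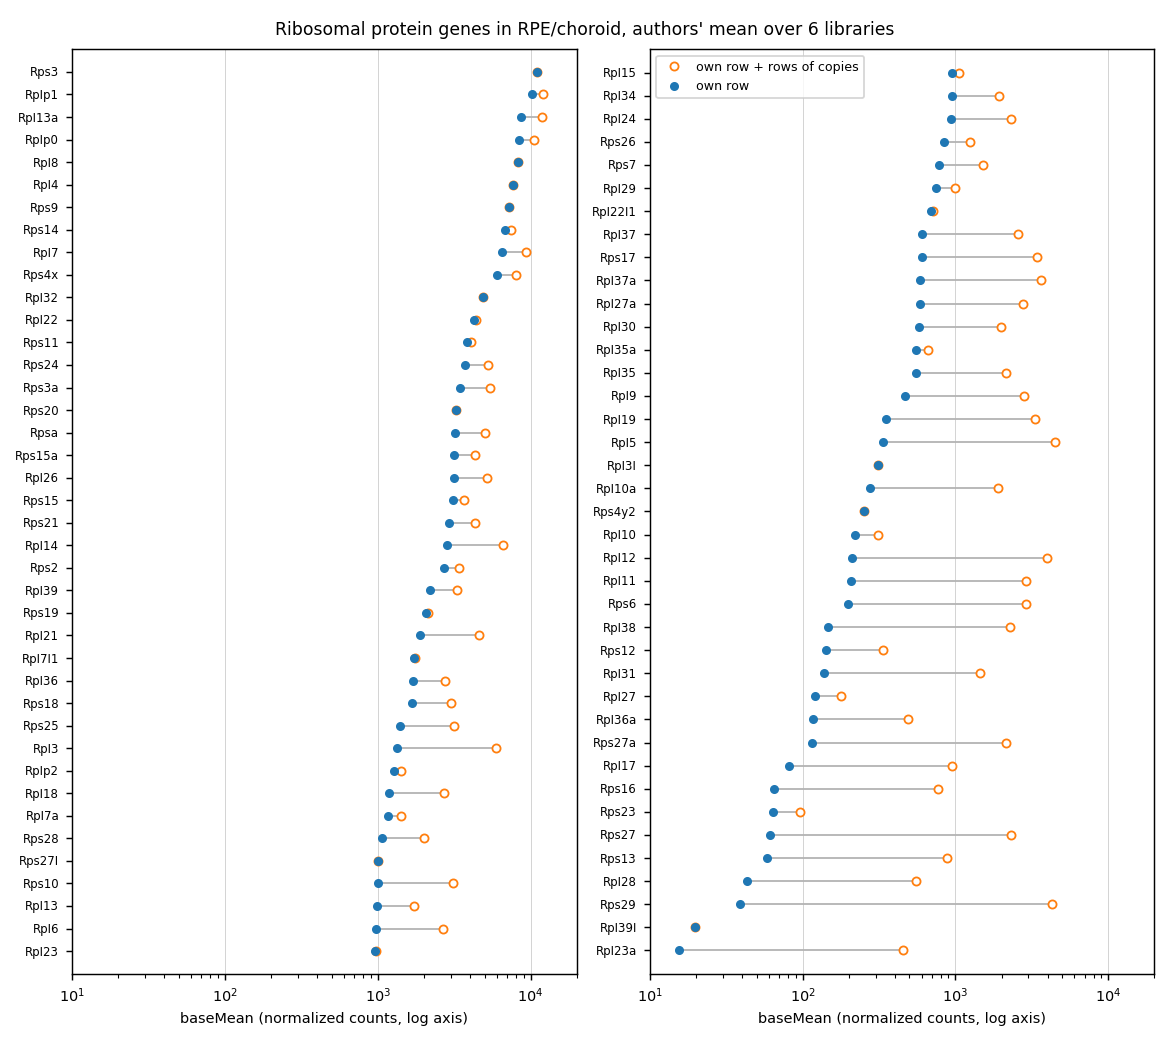
Level of 79 ribosomal protein genes above 0, as baseMean on a log axis in descending order over both panels. Filled points show the gene's own row and open points the own row plus the rows of its copies, which are genes that hold at least 10% of its coding words of 31 bases, both as the authors' mean over 6 libraries with no error bar. Rps29 moved from 39.2 to 4306 and Rps3, with no copy row, stayed at 10990.4.

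Many of the low core genes had a near-identical gene elsewhere in the genome that carried a high level. The sequences of 3 members are shown because they bear most directly on this. The coding sequence of Rps29 was identical over all 168 bases to Gm14303, a processed pseudogene whose annotated transcript is 171 bases long and spans little more than that stretch. The coding sequence of Rps27 (GRCm38 chr3:90212522-90213651, minus strand) was identical over all 252 bases to Rps27rt (chr9:114982366-114982739, minus strand), an intronless gene annotated as protein-coding and listed under its older name Gm9846. The Rps27 sequence is given from the GENCODE transcripts, with no base in capitals because none differs.
Rps27 and Rps27rt: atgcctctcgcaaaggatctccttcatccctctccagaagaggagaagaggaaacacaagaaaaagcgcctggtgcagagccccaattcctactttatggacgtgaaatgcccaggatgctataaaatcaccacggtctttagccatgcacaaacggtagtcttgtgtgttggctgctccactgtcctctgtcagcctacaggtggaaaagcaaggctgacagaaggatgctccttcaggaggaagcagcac
The Rps29 row stood at 39.2 and the Gm14303 row at 4223, and per kb of longest transcript these came to 100.5 and 24694. The Rps27 row stood at 61.1 and the Rps27rt row at 2236, or 134 and 5978 per kb of longest transcript. The copy was thus 246-fold and 44.8-fold above the member per length. A read that lies within these stretches is the same whichever of both genes it came from, so the levels of either gene of such a pair are uncertain.

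The copy was above the member per kb of longest transcript in 12 of 14 aligned pairs with no difference and in 11 of 11 with a single one, and by rows as deposited in 11 and 9. Rpl10 and Rpl13 were above their identical copies Rpl10-ps3 and Gm12918 on both scales. Of the pairs with a single difference, 2 are shown. Rpl37a (chr1:72711290-72713813, plus strand) and the processed pseudogene Gm4149 (chr13:75644896-75645171, plus strand) differed at 1 of 276 coding bases, T198C. Rpl37 (chr15:5116645-5119140, plus strand) and Rpl37rt (chr5:115102923-115110268, minus strand) differed at 1 of 291, G249A. Positions are counted from 1 at the A of the member's start codon, the member's base comes first, and the differing base is in capitals.
Rpl37a: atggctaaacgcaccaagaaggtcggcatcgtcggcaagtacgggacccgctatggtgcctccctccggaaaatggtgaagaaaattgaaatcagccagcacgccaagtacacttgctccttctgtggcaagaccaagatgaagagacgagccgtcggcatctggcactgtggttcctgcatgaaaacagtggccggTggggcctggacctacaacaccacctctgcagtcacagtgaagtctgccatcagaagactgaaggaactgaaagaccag
Gm4149: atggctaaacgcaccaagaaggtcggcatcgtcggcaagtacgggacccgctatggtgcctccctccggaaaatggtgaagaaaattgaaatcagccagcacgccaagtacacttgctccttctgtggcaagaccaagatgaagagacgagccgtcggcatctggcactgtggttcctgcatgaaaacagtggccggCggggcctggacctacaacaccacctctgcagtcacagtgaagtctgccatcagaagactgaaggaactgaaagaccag
Rpl37: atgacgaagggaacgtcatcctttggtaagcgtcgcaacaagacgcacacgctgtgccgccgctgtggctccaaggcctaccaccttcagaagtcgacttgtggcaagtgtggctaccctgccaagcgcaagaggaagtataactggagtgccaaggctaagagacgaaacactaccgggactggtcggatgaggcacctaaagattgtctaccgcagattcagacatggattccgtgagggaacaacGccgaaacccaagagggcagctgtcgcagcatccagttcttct
Rpl37rt: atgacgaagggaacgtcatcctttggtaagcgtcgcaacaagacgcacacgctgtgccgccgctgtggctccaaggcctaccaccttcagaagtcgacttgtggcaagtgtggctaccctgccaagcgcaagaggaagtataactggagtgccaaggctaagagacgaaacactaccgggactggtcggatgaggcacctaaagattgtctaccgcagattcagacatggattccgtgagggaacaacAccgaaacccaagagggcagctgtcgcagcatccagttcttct
Gm4149 had a baseMean of 3025 beside 587 for Rpl37a, and was 10.4-fold higher per kb of longest transcript. Rpl37rt had 1923 beside 607 for Rpl37, and was 3.88-fold higher on that scale. In both pairs the copy exceeded the level of the member although only reads over a single position can tell them apart within the coding sequence.

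To describe this for all members, the coding sequence of each was cut into overlapping words of 31 bases, and every other gene of the annotation that held at least 10% of a member's words on the same strand was taken as a copy. For Rps4y2, which has no annotated coding sequence, the transcript was used. The annotation had 956 such copies, and 590 of them had a row under their symbol or a known older one, 572 of a pseudogene type, 17 protein-coding and 1 of another type. Their rows summed to 103761, which was 37.6% of the sum over members and copies together. Each copy row was counted whole, also where the copy's transcript is much longer than the shared stretch. An example is BC004004, a protein-coding copy of Rpl21 with a transcript of 13859 bases and a row of 2305. Of the copies with a row, 57 were at 0, 87 were at 100 or more and 37 at 1000 or more. The level in copies thus lay in a small part of them. Some of the remaining 366 may be listed under an older name, so the copy sums below may miss rows.

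Of the 75 members above 0 with a copy row, 38 were below their highest copy per kb of longest transcript, and 17 were more than 10-fold below it. In baseMean as deposited, the highest copy row was above the member's own for 32 members and more than 10 times as high for 12. On the per kb scale, the ratio was 38.7 for Rps13 beside Rps13-ps2 and 28.8 for Rpl23a beside Rpl23a-ps3, whose rows were 15.5 and 374. Rpl12, a protein at the base of the stalk, had a row of 210 beside 3679 for Gm10275, with no difference over the coding sequence. Rpl5 and Rpl11, which carry the 5S ribosomal RNA and bind the p53 regulator MDM2, had 336 beside 4100 for Gm15500 and 208 beside 2542 for Gm10288. Rps6, the substrate of the S6 kinases, had 199 beside 2618 for Rps6-ps4. Per kb of longest transcript these copies were 34.3-fold, 24.5-fold, 18.9-fold and 15.4-fold above Rpl12, Rpl5, Rpl11 and Rps6. These copies, and the members among them that stand outside the highest and lowest 10, were chosen after their values were seen. In 55 aligned member and copy pairs with a copy row of at least 100, 13 were identical over the coding sequence. A further 20 had 1 to 3 differences and 22 had 4 or more, with a median identity of 99.5%. The alignment allowed no gaps, so 1 inserted or missing base can turn a whole stretch into differences. Pairs were aligned for 68 members only, and Rps14 beside Gm5805, with a row of 681, was not among them.

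When the rows of its copies were added to each member, the spread between the members became smaller. The standard deviation of the log2 baseMean over the 82 members above 0 was 2.28 for the own rows and 1.63 for the sums, and the ratio of the upper to the lower quartile was 10.8 and 3.10. The median rose from 978 to 2759. Added rows can only raise a level and weigh most on low rows in log2. The rise of the median was thus fixed in advance, and a smaller spread was favoured by the addition itself. A sum of at least 1000 was reached by 65 members. Of the core genes in the lowest 10, Rps29 came to 4306, Rps27 to 2315, Rps27a to 2145, Rpl17 to 950, Rps13 to 874, Rps16 to 769, Rpl28 to 548 and Rpl23a to 453. Rps23 came to 96.3, and its 10 copy rows summed to 31.9. Rpl27, with 121 and 178, and Rpl10, with 220 and 311, also stayed low. The sums are not estimates of the parent genes' own level, because a copy may be transcribed itself, and how the reads were divided between the genes was not tested.

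The members differed in how much of their coding sequence was their own. In 30 members no coding word of 31 bases was free of a match in another gene. The median member had 5.22% of its coding words to itself, and Rpl3l alone had all. The 30 members with no coding word of their own had a median baseMean of 215, and 13 of them were under 200. The 21 members with up to 10% of own words had a median of 1330, the 19 with 10% to 40% had 2712 and the 13 with more than 40% had 2062. Divided by coding length in kb, the medians of these classes were 406, 2298, 3727 and 4668, so the order of the last pair of classes turned with the scale. The median share of a member's sum found in its own row was 15.5%, 63.7%, 69.8% and 100% in these 4 classes. The copies in that sum are defined by the same shared words, so this trend is in part built in. Over the 82 members above 0, Spearman's rho between the own row and the share of own words was 0.552, and with the level per kb of coding sequence it was 0.563 over 81. Between the own row and coding length it was 0.286 over 81. These are descriptions across genes that share libraries and, in part, sequence.

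**Figure D2:**
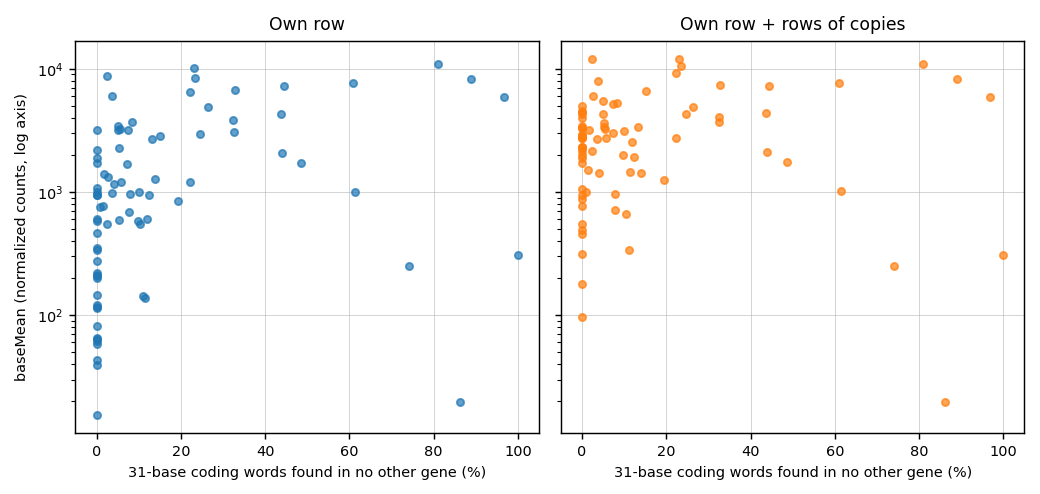
Percent of a member's 31-base coding words found in no other gene (horizontal axis) against its baseMean on a log axis, for 82 members above 0. The left panel shows own rows and the right panel own rows plus copy rows. At 0% the own rows reached down to 15.5, and the sums down to 96.3.

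The class with no own coding words was not uniform. In words of the longest protein-coding transcript, its members' own share ran from 5.95% for Rpl36 to 79.8% for Rpl9. Rpsa, the laminin receptor gene and a small subunit protein, had no coding word of its own but 54.3% of its transcript words. Its baseMean was 3209, with 64.2% of the sum in its own row. Rpl39 and Rpl21 had 2197 and 1877. Rpl15 had 950 and kept 90.4% of its sum, although 14 copies had a row. In contrast, the core genes Rps3, Rpl8, Rpl4 and Rps9 had no copy row and own rows of 7199 or above, and the paralogs Rpl3l and Rpl39l had no copy row either. Each of the 4 core genes has 1 copy in the annotation, for which no row was found under its symbol. Shared words and a low own row thus often, but not always, went together.

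Division by length changed the order of the genes. Per kb of the longest protein-coding transcript, Rplp1 was highest at 20461, followed by Rps14 at 8608, Rpl13a at 8271 and Rpl8 at 8142. Per kb of coding sequence, Rplp1 again led at 29854, followed by Rps3 at 15076 and Rps14 at 14916. The choice of length mattered most for genes with a long annotated transcript. Rps15a, with a longest transcript of 5179 bases and a coding sequence of 390 bases, ranked 53 on the first scale and 15 on the second, and Rps20 ranked 46 and 13. The scale is therefore named with each comparison below, and Rps15a was chosen after its values were seen.

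The 33 small subunit genes had a median of 1606 per kb of longest transcript and the 47 large subunit genes one of 727. Per kb of coding sequence the medians were 3645 and 1560. With copy rows added they were 7651 and 4892 per kb of coding sequence. The small subunit median was higher on each scale, though the quartiles on the first scale, from 267 to 3543 and from 246 to 1273, overlapped widely. Within the stalk, per kb of longest transcript, Rplp1 had 20461, Rplp0 6172 and Rplp2 1334, and per kb of coding sequence they had 29854, 8813 and 3727. The order was the same on both scales. The copy rows of Rplp2 summed to 139, of which 133 was Wdr89, a protein-coding gene with a longest transcript of 2979 bases. A row named Rplp2-ps1 stood at 2239, and no share of words was computed for it.

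Several members are paralogs of a core ribosomal protein. Rpl3l, which replaces Rpl3 in adult striated muscle, had a baseMean of 309, and Rpl3 was 4.37-fold higher per kb of longest transcript and 4.34-fold higher per kb of coding sequence. With copy rows, Rpl3 came to 4927 per kb of coding sequence beside 253 for Rpl3l, since only 22.3% of the Rpl3 sum lay in its own row. Skeletal muscle genes were present in the same libraries, with Myh4 at 51830, and their part in the Rpl3l row was not tested. Rpl7 was above Rpl7l1 by 8.44-fold and 3.32-fold on the same scales, and Rpl22 above Rpl22l1 by 1.67-fold and 5.90-fold. Rpl39 was 145-fold and 111-fold above the testis-associated Rpl39l. Rpl10l, a further testis-associated gene, was listed at 0 beside 220 for Rpl10.

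Rps4x, on the X chromosome, was 23.0-fold above Rps4y2 (now Rps4l) per kb of longest transcript, and Rps4y2 has no annotated coding length. The order was the opposite for Rps27l, a p53-responsive paralog, whose row of 1004 was 13.1-fold above that of Rps27 on both scales. With copy rows, however, Rps27 came to 9187 and Rps27l to 3206 per kb of coding sequence, and the order turned. Rpl36al, outside the name rule, had 788 and stood above Rpl36a by 2.55-fold per kb of longest transcript and 6.74-fold per kb of coding sequence. With copy rows, Rpl36a came to 1542 per kb of coding sequence, beside 2479 for the own row of Rpl36al. By own rows per length, the core genes were thus above their paralogs in 6 of 8 pairs, and below in the Rps27 and Rpl36a pairs.

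**Figure D3:**
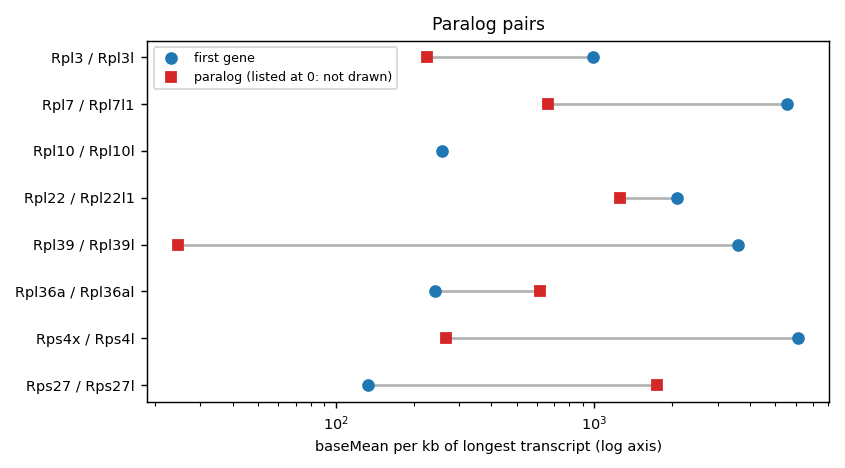
Levels in 8 paralog pairs as baseMean per kb of the longest transcript on a log axis, with circles for the first gene and squares for its paralog. Rpl39 was 145-fold above Rpl39l, while Rps27 and Rpl36a were below their paralogs, and Rpl10l, listed at 0, is not drawn.

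Some proteins of the ribosome fall outside the name rule. Fau, whose product is made as a fusion to a ubiquitin-like protein, had a baseMean of 95.8. Gnb2l1, now named Rack1, a scaffold protein on the small subunit, had 10243. No value is given for Rpl41, which had no row under that symbol.

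The members were set beside other gene lists on the same scale, per kb of longest transcript. The median over the 82 members above 0 was 998, with quartiles of 260 and 2783. In the mitochondrial ribosomal protein genes, which build the separate ribosome of that organelle, the median over 75 genes was 291 with quartiles of 145 and 544. The 39 proteasome subunit genes, likewise parts of a complex of fixed composition, had a median of 1057 with quartiles of 451 and 1351, and 28 translation initiation factor genes one of 916. Per kb of coding sequence the medians were 2087 for cytosolic and 709 for mitochondrial ribosomal proteins, 1347 for proteasome subunits and 1424 for initiation factors. Per kb of the median transcript they were 1299, 352, 1097 and 1471. In baseMean as deposited they were 986, 480.0, 1478 and 1764. The cytosolic median was above the mitochondrial one on each of these 4 scales, while its order against proteasome subunits and initiation factors turned with the scale. The ratio of upper to lower quartile per kb of longest transcript was 10.7 in cytosolic ribosomal proteins, 3.74 in mitochondrial ones, 3.00 in proteasome subunits and 2.76 in initiation factors. In baseMean as deposited the ratio was 10.8 for the members' own rows and 3.10 with copy rows added. On that scale it was 1.84 in mitochondrial ribosomal proteins, 3.07 in proteasome subunits and 2.95 in initiation factors, to which no copy rows were added. Over all 18065 protein-coding genes above 0 with a length, the median per kb of longest transcript was 107 and the quartile ratio 18.4. In baseMean as deposited, over 18071 protein-coding genes above 0, they were 322 and 23.9.

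Among translation elongation genes, Eef1a1, which delivers aminoacyl-tRNA, was above every member at 34557 per kb of longest transcript. Eef2, which drives translocation, had 8300 on that scale, below Rplp1 and Rps14, while its row as deposited, at 25639.8, was above every member's. The median of the 8 elongation genes was 1415. On the same scale, the 25 ribosome assembly genes had a median of 151, and ranged up to 1622 for Npm1, a nucleolar chaperone. A list of 15 other genes known for terminal oligopyrimidine messages, some of them elongation and initiation genes, had a median of 1319. Among the regulators that bind or control such messages, Larp1, which holds them back when mTOR is inactive, had 238 per kb, Mtor 276 and Cnbp 3092, and the median of 8 was 291. Per kb of coding sequence the medians of these 4 lists were 3280, 272, 1885 and 772. In baseMean as deposited they were 2627, 424, 2320 and 1646, beside 986 for the members. The order of the regulators against the members thus turned with the scale.

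**Figure D4:**
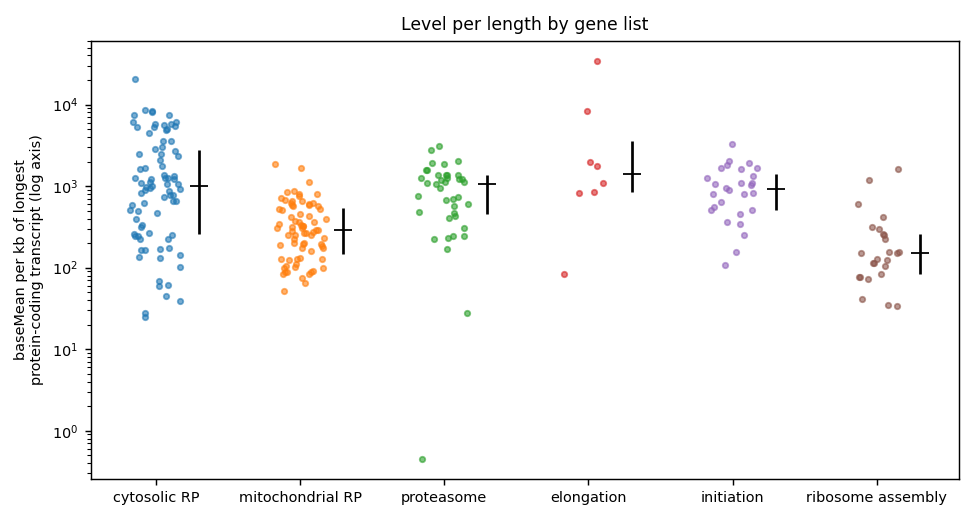
Level of each gene above 0 in 6 gene lists, as baseMean per kb of the longest protein-coding transcript on a log axis. Points are genes, the horizontal mark is the median and the vertical bar runs from the lower to the upper quartile. Cytosolic ribosomal proteins spanned quartiles of 260 to 2783, against 145 to 544 in mitochondrial ribosomal proteins.

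The start sites were searched for the oligopyrimidine feature of the family, as a description with no test. A C at the annotated RefSeq start followed by at least 4 bases that are each C or T was found in 13 of 62 members with a start window, or 20.97%, and in 813 of 27025 genes of the same reference, or 3.01%. Only the transcribed strand was searched, and only at the annotated first base. The windows below run from 10 bases before the start to the 20th base from it, with the unbroken C and T run from the start in capitals, and show the longest run, that of Rpl15 (GRCm38.p6 chr14:18270967-18270996, minus strand), with Rps10 (chr17:27635225-27635254, minus strand) and Rps6 (chr4:86857348-86857377, minus strand).
Rpl15: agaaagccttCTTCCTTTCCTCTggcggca
Rps10: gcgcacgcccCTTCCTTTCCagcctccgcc
Rps6: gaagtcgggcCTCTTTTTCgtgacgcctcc
The runs were 13, 10 and 9 bases long. The 13 genes with the pattern had rows from 43.5 for Rpl28 to 3171 for Rps15a, and no member above rank 19 by row was among them. A start without the pattern says only that the letters are not at that annotated base.

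Introns of ribosomal protein genes often hold small nucleolar RNAs (snoRNAs), which guide the chemical modification of ribosomal and other RNAs. On the same strand, 30 members enclosed 58 annotated snoRNA genes, and 29 of these had a row. Of those, 15 were above 0, from 1.58 to 426. The highest was Snord15a in Rps3 at 426, and Snora21 in Rpl23 had 50.5. Rpl4 enclosed the most, with 5, and Rpl13a enclosed 4. Host members had a median baseMean of 1182 and the other 53 members one of 936. Per kb of coding sequence the medians were 1956 and 2052, so the order of hosts and other members turned with the scale.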

How the data were processed

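RPE/choroid total RNA from 3 young and 3 aged mice was depleted of ribosomal RNA and sequenced as stranded libraries. The authors mapped read pairs to Ensembl GRCm38 transcripts with STAR, quantified TPM values with Sailfish 0.9.0 and turned these values into normalized counts by the total count method. Whether the division by length in TPM was undone is not given in the sources used here. The deposited table has 1 row per gene. Its level column, baseMean, is a signal that the authors made by averaging normalized counts over all 6 libraries. The other 5 numeric columns hold the authors' own DESeq2 comparison of aged with young mice (fold change, its error, statistic, p-value and adjusted p-value) and were not used. The table holds 0 columns of per-library values, so no comparison of ages, no error and no depth could be computed from it, and the planned limma fit was not run.

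Members, gene lists and tests were chosen with earlier results of these data known. Genes named are the 10 highest and 10 lowest members above 0, members at 0, paralog pairs, stalk genes, Rps27a, members with the smallest share of own words and snoRNA hosts, and, outside the members, genes of the fixed lists. Since 30 members tied at no own coding word, a few of them are named. Rpl37a, Rps10 and Rps15a are outside the rule and were chosen after their values were seen. Lengths, coordinates and sequences came from GENCODE M21 on GRCm38, a later annotation than the authors used. For 81 members the symbol matched and 2 (Rps3a, Rps4y2) matched by an older symbol. Start windows came from RefSeq GRCm38.p6. Words of 31 bases were counted on the transcribed strand in all annotated transcripts. A further 366 copies had no row under their symbol and were not used, though some may be listed under an older name. Some members and sequences, and a planned wider member set, are not reported here. The word count was tested on simulated data. Python 3.11.15, pandas 2.3.3, numpy 2.4.6 and matplotlib 3.10.9 were used.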

Additional observations from a re-analysis of the deposited data

How the results depend on the processing

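The levels are means over both ages with no error, so changes with the processing could not be set against replicate spread. No paired analysis was possible because single libraries have no column of their own, and leaving out replicates, the pseudocount of an age comparison and its filter were not run for the same reason. Values with copy rows, copy ratios per length, values with transcript words and with the copy threshold were chosen after seeing the data. The members' sum of 172133 and median of 978 became 168137 and 996 without 7 restricted paralogs. They became 34387 and 1004 over the 9 members with at least 50% own coding words, and 96787 and 958 over the 48 with at least 50% own transcript words. Adding rows named as pseudogenes (-ps) of a member gave 203828 and 1288, and adding all copy rows 275894 and 2759. Over all 83 members the median per kb was 984 by longest transcript, 1287 by median transcript and 2037 by coding sequence. The median log2 level was 9.946 without and 9.947 with a pseudocount of 1. The member median stood above 86.1% of all rows, 82.3% of rows above 0 and 73.7% of rows of at least 10. The standard deviation of log2 levels was 2.28 as deposited and without members under 10, 2.215 per kb of longest transcript, 2.157 per kb of coding sequence and 1.63 with copy rows. Copies held 37.6% of the joint sum, 35.8% when a copy needed 50% of the coding words and 36.8% when words of the longest transcript were used.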
